A study of Homo sapiens with 12 samples.

Results

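The genes described here are 39 genes of the epithelial cell junctions and of apicobasal polarity, chosen by name with earlier results of these data known. They hold 4 genes of the adherens junction, 4 of the nectin-afadin system, 10 of the desmosome, 11 of the tight junction, 6 of the polarity complexes and 4 that mark or maintain epithelial identity. All 39 were found among the 23459 genes of the count table, and 37 of them passed the filter on low counts and were tested. CLDN3 (0 to 3 counts per library) and CLDN4 (0 to 10 counts per library), which encode claudins of tight junction strands, did not pass. PKP1, which encodes the desmosomal plaque protein plakophilin 1, passed through its JUN libraries, with 5 to 15 counts per library there and 0 to 6 in vector libraries.

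Epithelial cells are held together by adherens junctions, in which E-cadherin and P-cadherin bind their counterparts on the next cell and are anchored to actin by catenins, and by desmosomes, in which desmogleins and desmocollins are anchored to keratins by plakoglobin, plakophilins and desmoplakin. Tight junctions of claudins, occludin and ZO proteins seal the space between cells, and the Crumbs, PAR and Scribble complexes set which side of the cell is apical. Cell contact through these structures is known to restrain YAP, and PALS1, PATJ and the Crumbs proteins belong to the apical machinery that feeds into the Hippo pathway.

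The libraries came from MCF10A, a non-tumorigenic human breast epithelial line that carried a doxycycline-inducible allele of YAP5SA, a YAP mutant that Hippo signalling does not inactivate. They carried either a vector expressing JUN or an empty vector, brought in by infection, and received doxycycline (Dox, 100 ng/ml) or ethanol (EtOH) as its solvent. The 4 groups (vector or JUN cells, each in EtOH or Dox) had 3 libraries each with 18594867 to 28993487 counts per library. Every group carried the inducible allele and both agents were crossed, but no library had Dox without that allele, so effects of Dox and of YAP5SA cannot be told apart. Whether the line was a clone or a pool is not given in the sources used here.

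The manipulated genes were examined first. JUN stood at 35.5 to 55.0 CPM (counts per 1000000 counts of the library, after TMM scaling) without and 186.5 to 194.4 with Dox in vector cells, and 1064 to 1399 without and 1146 to 1325 with Dox in JUN cells. YAP1 counts, which sum the endogenous gene and whatever part of the transgene aligns there, were 171.1 to 191.3, 216.1 to 272.9, 210.5 to 249.4 and 207.8 to 364.9 CPM in the same order, and JUN Dox replicate 1 had the highest value. All 7 basal epithelial markers were detected, with a summed level of 4691 to 10700 CPM per library. Of the luminal keratins, KRT8 was at 262 to 799 CPM and KRT18 at 223 to 722, while KRT19 stayed at or under 0.499 CPM. The endothelial markers summed to at most 2.20 CPM, and COL1A2, COL3A1, PTPRC and CD3E had at most 3 counts in any library. The other fibroblast markers were detected at various levels. PDGFRA was at 87.9 to 156 CPM, DCN at 2.93 to 22.4, LUM at 0.456 to 6.83, COL1A1 at 1.3 to 3.96 and PDGFRB at 0 to 0.718. CD68, listed among the immune markers, was at 17 to 93.3 CPM, highest in JUN EtOH.

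On induction in vector cells, 8 of 37 tested genes were called higher and 12 lower (edgeR quasi-likelihood test, Benjamini-Hochberg adjusted p under 0.05), beside 15.6% and 14.4% of all 14775 genes tested (30.1% in either direction). The JUN vector without induction gave 8 higher and 12 lower as well, beside 20.1% and 18.9% of all genes. Induction in JUN cells gave 5 higher and 15 lower, beside 11.2% and 10.3%, and the JUN vector with induction gave 9 higher and 18 lower, beside 18.4% and 17.2%. The median log2 fold change of the tested junction genes was -0.083, -0.092, -0.225 and -0.425 in these comparisons, against 0.007, 0.001, 0.003 and 0.003 over all genes. The shares called higher (21.6%, 21.6%, 13.5% and 24.3%) were close to or a little above the background. The shares called lower (32.4%, 32.4%, 40.5% and 48.6%) lay above it. The list was chosen with earlier results of these data known, so these shares are no independent test of the set. Without vector EtOH replicate 3 the JUN vector gave 5 rather than 8 higher without induction, and without JUN Dox replicate 2 it gave 4 rather than 9 with induction. Without vector EtOH replicate 1, induction in vector cells gave 10 rather than 12 lower. Without JUN EtOH replicate 2, induction in JUN cells gave 10 rather than 15 lower. PKP1, which passed the filter through its JUN libraries alone, is among the higher calls of the JUN vector, which came to 7 without and 8 with induction when it was left out. JUP, whose counts are uncertain (below), is also among the higher calls of the JUN vector with induction. It is among the lower calls of induction in vector and in JUN cells too. In bulk RNA, fewer cells with a transcript and less of it per cell cannot be told apart.

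**Figure D1:**
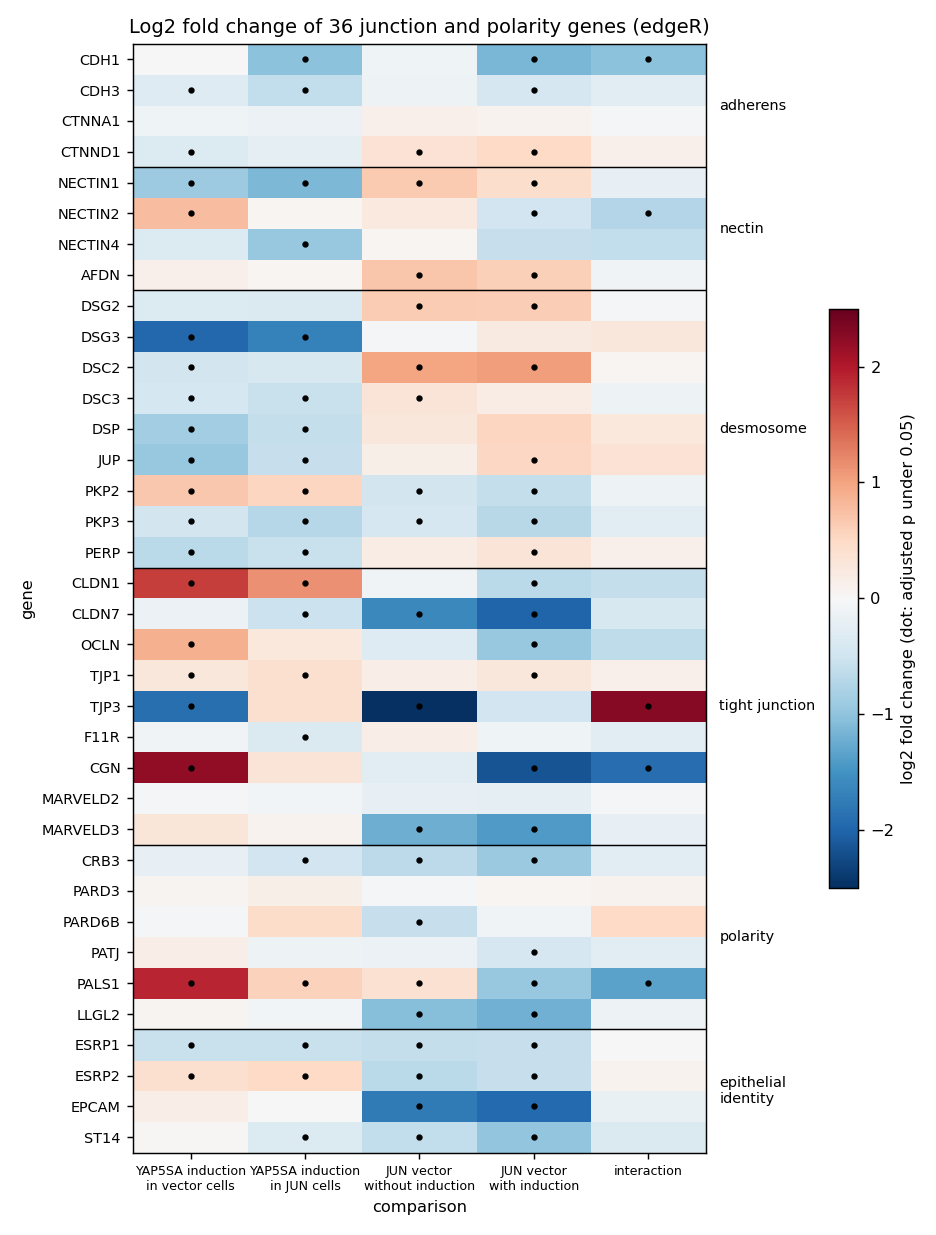
Log2 fold change (colour) of 36 tested junction and polarity genes (rows, by structure) in 5 comparisons (columns), where a dot marks an edgeR adjusted p under 0.05; PKP1 is left out because its vector libraries were at or near the detection floor. Desmosome genes are mostly blue in the first columns, and the polarity and epithelial identity genes mostly blue in the JUN columns.

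Both inductions rest on separate libraries, as do both JUN comparisons, so their calls can be set side by side. Of the genes lower on induction, 9 were shared (CDH3, NECTIN1, DSG3, DSC3, DSP, JUP, PKP3, PERP and ESRP1), which is 75.0% of the 12 in vector cells and 60.0% of the 15 in JUN cells, beside 54.0% and 75.9% for the lower calls of all genes tested. Of the genes higher on induction, 5 were shared (PKP2, CLDN1, TJP1, PALS1 and ESRP2), 62.5% of the 8 in vector cells and 100.0% of the 5 in JUN cells, beside 54.0% and 75.7% over all genes, and the TJP1 call in vector cells was lost in most alternative fits. The JUN vector lowered 10 genes in both settings, 83.3% of the 12 without and 55.6% of the 18 with induction, beside 65.0% and 71.5% over all genes. It raised 6 in both (PKP1 among them), 75.0% of the 8 and 66.7% of the 9, beside 69.0% and 75.2%. In each pair of comparisons the members thus lay on both sides of the shares over all genes, except for the higher calls on induction, and no test was made of these shares. Only CTNNA1 (the actin-linking alpha-catenin), MARVELD2 (tricellulin) and PARD3 (a scaffold of the PAR complex) were called in none of the 5 comparisons in the main edgeR fit. Without vector Dox replicate 1, MARVELD2 was called lower with the JUN vector under induction (-0.479, edgeR adjusted p 0.012).

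Desmosome genes formed the largest block of falls on induction. In vector cells 7 of the 10 were called lower and 1 higher, beside 14.4% and 15.6% of all genes tested. In JUN cells 6 were lower and 1 higher, beside 10.3% and 11.2%. Among the lower calls in both settings are DSP and JUP, whose counts are uncertain. Their calls in JUN cells were lost in several alternative fits (below). The median of the desmosome genes was -0.57 in each setting. The 7 basal epithelial markers moved with induction too, since their summed level was 8584 to 9223 CPM without and 4691 to 5908 with Dox in vector cells, and 9325 to 10700 without and 6033 to 8499 with Dox in JUN cells, and their part in the desmosome result was not tested. DSG3 (Entrez gene 1830, GRCh37 chromosome 18, 29027704 to 29058665), the desmoglein of basal layers of stratified epithelium, fell most. Its levels were 103.4, 89.9 and 91.0 CPM in vector EtOH and 20.5, 25.7 and 26.3 in vector Dox. JUN cells gave 90.7, 99.3 and 84.85 CPM without and 31.3, 29.4 and 24.5 with induction. The Dox libraries thus lay far below the EtOH libraries on either background, with no overlap. The fall was 1.97 on the log2 scale (SE 0.12, edgeR adjusted p 2.81e-08) in vector cells, a 3.92-fold lower level, and 1.69 (SE 0.12, edgeR adjusted p 3.13e-07) in JUN cells. The JUN vector did not move DSG3 past the threshold (-0.049 and 0.232).

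DSG2 (Entrez gene 1829), the desmoglein found in most epithelia, is the neighbour of DSG3 on the same strand, with 19.5 kb between them. DSG2 had 337.1, 264.9 and 315.8 CPM without and 205.7, 273.1 and 248.3 with Dox in vector cells, and 524.2, 466.9 and 437.0 without and 438.9, 353.8 and 323.1 with Dox in JUN cells. EtOH and Dox libraries overlapped in vector and in JUN cells, and the values of the induction were -0.34 (edgeR adjusted p 0.0899) and -0.36 (0.0908). Without JUN Dox replicate 1 both falls were called (edgeR adjusted p 0.041 and 0.0231). Without vector Dox replicate 1 the fall in JUN cells was called (edgeR adjusted p 0.0469). The JUN vector raised it by 0.64 (SE 0.14, edgeR adjusted p 0.00297) without and 0.62 (SE 0.14, edgeR adjusted p 0.00395) with induction. DSG2-AS1, on the opposite strand and sharing 186 exonic bases, had a mean of 5741.5 counts against 8027.4 for DSG2 and a JUN effect of 0.595, and without known use of strand their reads cannot be told apart. Per exon length, DSG3 made up 34.6% ± 1.88 of the DSG2 and DSG3 signal without and 14.5% ± 0.73 with Dox in vector cells, and 24.7% ± 1.92 without and 11.55% ± 0.80 with Dox in JUN cells (SD, n = 3).

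The promoter windows of these neighbouring genes are shown because the main fit called induction for DSG3 on either background and for DSG2 on neither. Each runs from 250 bases before to 50 after the RefSeq start (GRCh38.p14, plus strand; DSG3 chr18:31447491-31447790, DSG2 chr18:31497927-31498226), and capitals mark GC boxes (GGGCGG on either strand). The GC content is 44% in the DSG3 window, the lowest of the 24 members with a window, and 76.7% in that of DSG2.
DSG3: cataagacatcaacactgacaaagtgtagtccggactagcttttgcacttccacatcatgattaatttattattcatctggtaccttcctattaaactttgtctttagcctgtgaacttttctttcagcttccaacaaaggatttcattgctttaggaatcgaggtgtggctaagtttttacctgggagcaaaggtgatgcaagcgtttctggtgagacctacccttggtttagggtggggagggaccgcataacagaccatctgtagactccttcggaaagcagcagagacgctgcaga
DSG2: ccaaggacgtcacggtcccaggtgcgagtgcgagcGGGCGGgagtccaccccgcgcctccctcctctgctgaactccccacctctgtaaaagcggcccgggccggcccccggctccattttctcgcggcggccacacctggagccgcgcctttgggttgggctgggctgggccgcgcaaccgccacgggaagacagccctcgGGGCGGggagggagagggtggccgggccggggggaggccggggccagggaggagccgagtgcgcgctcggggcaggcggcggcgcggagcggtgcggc
The DSG3 window holds no GC box, and that of DSG2 holds 2.

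Desmocollins pair with desmogleins on the cell surface. DSC2 (Entrez gene 1824), the most widely expressed of them, had 48.75, 40.5 and 46.9 CPM without and 23.9, 39.03 and 36.5 with Dox in vector cells, and 96.0, 88.5 and 87.0 without and 72.1, 68.4 and 64.5 with Dox in JUN cells. JUN libraries lay above vector libraries with and without induction. The JUN vector raised DSC2 by 0.99 (SE 0.145) and 1.04 (SE 0.15), at edgeR adjusted p values of 0.000104 and 7.04e-05, the largest rises of any tested junction gene above 1 CPM. Induction lowered DSC2 with a log2 fold change of -0.455 in vector cells (SE 0.15, edgeR adjusted p 0.0284). That call was lost in 4 of 18 alternative fits, with -0.275 (edgeR adjusted p 0.0567) without vector Dox replicate 1. In JUN cells the value was -0.41 (edgeR adjusted p 0.0557), and this fall was called in several alternative fits. Among them were DESeq2 (DESeq2 adjusted p 0.0344) and the fits without vector Dox replicate 1 or 2 (edgeR adjusted p 0.00329 and 0.0379). Its neighbour DSC3, 16.0 kb away, was lower on induction with a log2 fold change of -0.43 and -0.56 and higher with the JUN vector without induction (0.32, edgeR adjusted p 0.0308, lost in 4 of 18 alternative fits).

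Of the plaque genes, DSP (desmoplakin, the link to keratins) went from 620.5 to 755.3 CPM in vector EtOH to 230.1 to 454.8 in vector Dox. Its fall was 0.86 on the log2 scale (SE 0.20, edgeR adjusted p 0.00512), and vector Dox replicate 1 was the lowest of all libraries. In JUN cells DSP was called lower with a log2 fold change of -0.60 at an edgeR adjusted p of 0.047, a call that was lost in 10 of 18 alternative fits. PERP, a membrane protein of desmosomes, fell from 324.8 ± 16.8 to 203.2 ± 5.80 CPM in vector cells and from 369.2 ± 12.5 to 252.3 ± 17.6 in JUN cells (SD, n = 3). PKP3 (plakophilin 3) fell by 0.45 and 0.72 on induction and by 0.42 and 0.69 with the JUN vector, so that its level was 232.8 ± 4.12 CPM with neither and 105.7 ± 17.7 with both (SD, n = 3).

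PKP2, the plakophilin of simple epithelia and heart, was the desmosome gene that moved the other way. Its libraries had 73.8, 68.4 and 62.8 CPM without and 96.85, 118.6 and 111.1 with Dox in vector cells, and 49.8, 49.8 and 49.2 without and 71.6, 75.8 and 69.9 with Dox in JUN cells. Dox libraries lay above EtOH libraries on either background and JUN libraries below vector libraries without induction. Induction raised PKP2 by 0.67 (SE 0.10) and 0.55 (SE 0.10), at edgeR adjusted p values of 9.8e-05 and 0.00097, and the JUN vector lowered it with a log2 fold change of -0.46 (edgeR adjusted p 0.00186) and -0.59 (edgeR adjusted p 0.000276). Per exon length PKP2 rose from 9.77% ± 0.70 to 19.1% ± 1.24 of the PKP2 and PKP3 signal in vector cells and from 9.54% ± 0.59 to 20.4% ± 2.93 in JUN cells (SD, n = 3).

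JUP, which encodes plakoglobin of both desmosomes and adherens junctions, is reported as uncertain. Its counts were those of KRT17, a basal keratin gene on the same chromosome, times 1.54 to 2.13 in every library, and its level per exon length in vector EtOH (528.0 CPM per kb) was far above that of the next tested junction gene, PERP (77.4). As deposited, JUP was 2717, 2758 and 2354 CPM without and 1456, 1312 and 1300 with Dox in vector cells, and 2381, 3046 and 3261 without and 1321, 2201 and 2299 with Dox in JUN cells. Induction gave a fall of 0.94 (SE 0.185, edgeR adjusted p 0.00136) in vector cells and 0.58 (edgeR adjusted p 0.0366) in JUN cells, beside -1.27 and -0.73 for KRT17. The JUP call in JUN cells was lost in 6 of 18 alternative fits, with -0.367 (edgeR adjusted p 0.0796) without JUN Dox replicate 1. With the KRT17 count subtracted from JUP in each library, a setting chosen after the counts were seen, these values were -0.51 (edgeR adjusted p 0.0159) and -0.39 (0.0723). The JUN vector under induction raised the deposited JUP level by 0.517 (edgeR adjusted p 0.0405), with overlapping groups. That call was lost in several alternative fits, among them those without JUN Dox replicate 2 (0.417, edgeR adjusted p 0.148) or 3 (0.378, 0.142). Whether the deposited JUP count holds KRT17 reads was not tested.

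**Figure D2:**
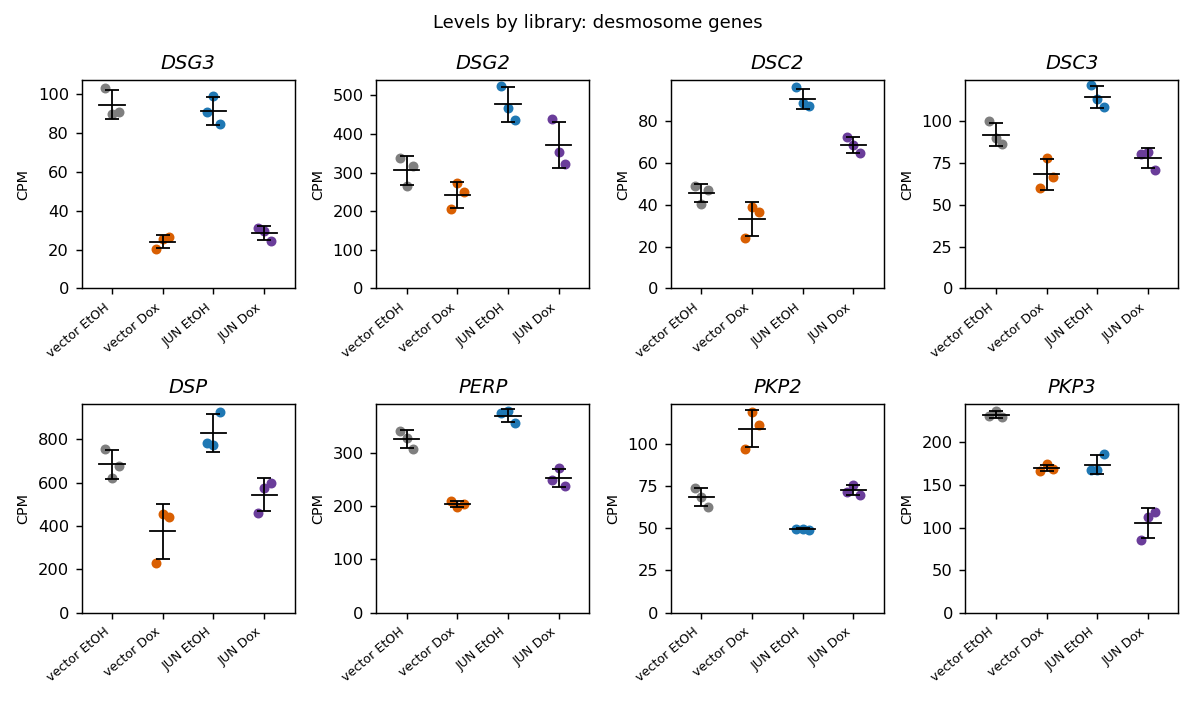
CPM of 8 desmosome genes in each library (points), with the group mean and SD (bars, n = 3) for vector and JUN cells, each in EtOH and Dox; every axis starts at 0. DSG3 drops to 20.5 to 31.3 CPM in the Dox libraries, DSC2 and DSG2 are highest in JUN EtOH, and PKP2 is highest in vector Dox.

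Induction raised 4 and lowered 1 of the 9 tested tight junction genes in vector cells, beside 15.6% and 14.4% of all genes. In JUN cells it raised 2 and lowered 2, beside 11.2% and 10.3%. The JUN vector lowered 3 without and 5 with induction, beside 18.9% and 17.2% of all genes, and raised 0 and 1, beside 20.1% and 18.4%. For the count of 0 by edgeR, 0 tight junction genes were higher at an unadjusted p under 0.05, and DESeq2 also called 0. CLDN1 (Entrez gene 9076, GRCh37 chromosome 3, 190023496 to 190040235), a barrier-forming claudin, had 24.0, 18.6 and 16.4 CPM in vector EtOH and 63.4, 67.6 and 65.1 in vector Dox. In JUN cells it had 20.25, 18.7 and 16.5 CPM without and 40.8, 43.6 and 37.9 with induction. All Dox libraries lay above all EtOH libraries, and those of JUN Dox lay below those of vector Dox. CLDN1 rose by 1.73 (SE 0.13) in vector and 1.14 (SE 0.13) in JUN cells, at edgeR adjusted p values of 1.57e-07 and 2.13e-05. The interaction, -0.59, did not pass the threshold (edgeR adjusted p 0.185).

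CLDN7 (Entrez gene 1366, GRCh37 chromosome 17, 7163222 to 7167302) encodes a claudin that binds EpCAM at the lateral membrane. Vector EtOH libraries had 147.8, 149.9 and 147.1 CPM and vector Dox libraries 142.4, 134.6 and 127.1, against 43.6, 51.8 and 50.8 without and 26.5, 40.8 and 33.2 with Dox in JUN cells. The JUN vector therefore separated the libraries completely. It lowered CLDN7 with a log2 fold change of -1.605 (SE 0.13, edgeR adjusted p 3.45e-07) without and -2.005 (SE 0.13, edgeR adjusted p 4.08e-08) with induction, a 3.04-fold and 4.01-fold lower level. In JUN cells induction lowered CLDN7 further, with a log2 fold change of -0.54 (edgeR adjusted p 0.00781). ELP5 on the opposite strand shares 38 exonic bases with it and had a mean of 608.6 counts against 2100.8. Per exon length, CLDN1 made up 8.34% ± 1.52 of the CLDN1 and CLDN7 signal without and 25.03% ± 1.42 with Dox in vector cells, and 20.8% ± 3.06 without and 45.9% ± 4.85 with Dox in JUN cells (SD, n = 3), with no overlap between vector EtOH and any other group.

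**Figure D3:**
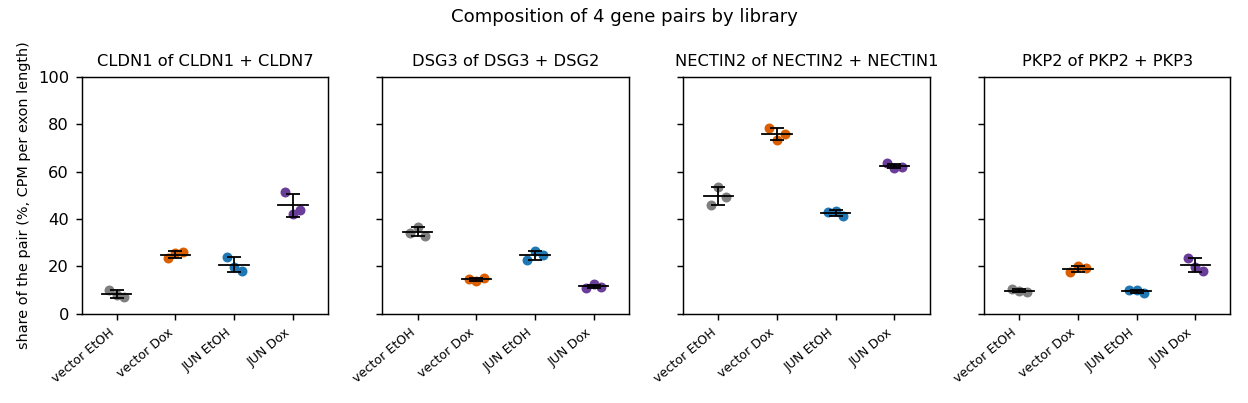
Share of the first gene in the summed signal of a pair (percent, CPM per kb of exon) in each library (points) with the group mean and SD (bars, n = 3). CLDN1 goes from 8.34% to 45.9% of its pair between vector EtOH and JUN Dox, while the shares of DSG3, NECTIN2 and PKP2 separate Dox from EtOH libraries on either background.

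The other tight junction genes were at lower or steadier levels. MARVELD3, a relative of occludin, had 21.45, 20.7 and 20.7 CPM in vector EtOH and 8.54, 10.03 and 8.54 in JUN EtOH, a fall of 1.21 (SE 0.12, edgeR adjusted p 2.97e-06), and with induction it was lower with a log2 fold change of -1.42 (edgeR adjusted p 5.29e-07). It shares 1068 exonic bases with PHLPP2 on the opposite strand, which had a mean of 674.2 counts against 377.1 and JUN effects of 0.13 and 0.01. Reads of the shared bases cannot be told apart without known use of strand. OCLN (occludin) rose from 7.94 ± 0.35 to 14.7 ± 1.70 CPM on induction in vector cells (SD, n = 3; log2 fold change 0.89, edgeR adjusted p 0.00378). In JUN cells its values were 6.34 ± 1.36 and 7.67 ± 2.28 CPM (0.26, edgeR adjusted p 0.428), and their difference of -0.63 did not pass (edgeR adjusted p 0.537). TJP1 (the scaffold ZO-1) was called higher in vector cells by 0.28 at an edgeR adjusted p of 0.0469, a call lost in 14 of 18 alternative fits, and in JUN cells by 0.40 (edgeR adjusted p 0.00953). F11R (the adhesion molecule JAM-A) was lower on induction in JUN cells with a log2 fold change of -0.36 (edgeR adjusted p 0.0143, and 0.0716 without JUN EtOH replicate 2).

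All 4 genes of epithelial identity were called lower with the JUN vector, without and with induction, beside 18.9% and 17.2% of all genes tested. The luminal keratins KRT8, KRT18 and KRT19 together had 1251 to 1438 CPM without and 1488 to 1502 with Dox in vector cells, and 684.1 to 903.7 without and 485.1 to 851.5 with Dox in JUN cells, while CD68, listed among the immune markers, was at 17 to 29.8 CPM in vector and 50.8 to 93.3 in JUN libraries, and the part of either in the JUN results was not tested. EPCAM (Entrez gene 4072, GRCh37 chromosome 2, 47572297 to 47614740), an epithelial adhesion molecule, had 136.6, 163.2 and 138.0 CPM without and 191.3, 141.2 and 155.8 with Dox in vector cells, and 40.7, 43.6 and 44.9 without and 40.6, 44.8 and 42.1 with Dox in JUN cells. The JUN libraries were tightly grouped below every vector library, and induction made no difference past the threshold (0.16 and -0.019). EPCAM was lower with a log2 fold change of -1.76 (SE 0.12) and -1.94 (SE 0.12), at edgeR adjusted p values of 5.83e-08 and 2.05e-08, a 3.39-fold and 3.83-fold lower level. ST14, which encodes matriptase, a surface protease that cleaves EpCAM, was at 274.2 ± 14.3, 278.8 ± 19.6, 178.0 ± 8.80 and 141.3 ± 10.9 CPM in vector cells without and with Dox and then in JUN cells without and with Dox (SD, n = 3), with JUN effects of -0.62 (edgeR adjusted p 0.000187) and -0.98 (edgeR adjusted p 2.76e-06).

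ESRP1 and ESRP2 encode RNA-binding proteins that direct epithelial splicing. The JUN vector lowered them with a log2 fold change of -0.59 and -0.67 without and with a log2 fold change of -0.58 each with induction. Induction lowered ESRP1 (-0.55 in vector and JUN cells, edgeR adjusted p 0.000342 and 0.000668) and raised ESRP2 (0.41 and 0.50, edgeR adjusted p 0.00269 and 0.000965). Per exon length, ESRP2 rose from 42.2% ± 0.67 to 58.6% ± 1.07 of the pair in vector cells and from 40.7% ± 1.73 to 58.7% ± 1.75 in JUN cells (SD, n = 3). ESRP2 shares 227 exonic bases with NFATC3 on the opposite strand, whose reads cannot be told apart there without known use of strand. NFATC3 had a mean of 1482.0 counts against 1634.8, an induction of -0.055 in vector cells and a JUN effect of -0.52 without induction.

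Of the polarity genes, LLGL2, a basolateral Scribble-complex protein, and CRB3, the apical Crumbs protein of most epithelia, were lower in JUN cells. LLGL2 had 43.0 to 47.8 CPM without and 45.1 to 51.5 with Dox in vector cells, and 18.5 to 24.9 without and 19.3 to 22.1 with Dox in JUN cells, a difference of -1.06 (SE 0.11) and -1.20 (SE 0.115), at edgeR adjusted p values of 6e-06 and 1.86e-06. CRB3 was lower with a log2 fold change of -0.66 (edgeR adjusted p 0.00135) and -0.93 (edgeR adjusted p 9.84e-05). Its span overlaps SLC25A23 (0 shared exonic bases) and DENND1C (15 shared exonic bases). These had means of 744.6 and 219.2 counts against 267.5 and JUN effects of -0.90 and -0.67 without induction. Since annotation and use of strand are not known, the CRB3 value is uncertain. PARD6B was called lower with the JUN vector without induction (-0.58, edgeR adjusted p 0.0194, lost in 4 of 18 alternative fits), and PATJ with induction (-0.425, edgeR adjusted p 0.00212).

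**Figure D4:**
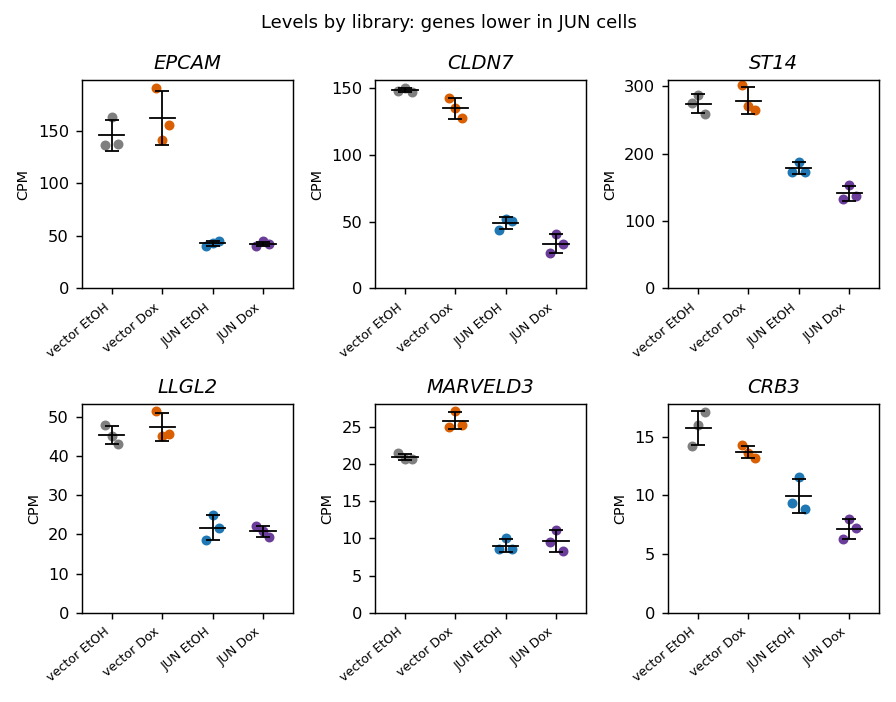
CPM of 6 genes lower in JUN cells, in each library (points) with the group mean and SD (bars, n = 3); every axis starts at 0. In each panel the JUN EtOH libraries lie below the vector EtOH libraries, and EPCAM stays at 40.6 to 44.9 CPM in the 6 JUN libraries.

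Among adherens and nectin genes the JUN vector raised AFDN, NECTIN1 and CTNND1, while under induction it lowered CDH1, CDH3 and NECTIN2. With Dox, CDH1 was at a mean of 129.2 CPM in vector and 58.7 in JUN cells. CDH3 was at 209.9 and 157.7, and NECTIN2 at 76.6 and 55.2 (n = 3). AFDN (afadin, which ties nectins to actin) had 81.4, 67.9 and 78.5 CPM without and 67.6, 90.95 and 91.8 with Dox in vector cells, and 123.0, 119.5 and 123.5 without and 130.3, 125.2 and 122.7 with Dox in JUN cells. JUN libraries lay above vector libraries throughout, with rises of 0.68 (SE 0.11) and 0.595 (SE 0.11), at edgeR adjusted p values of 0.00034 and 0.00105. NECTIN1 had 106.3, 82.6 and 97.15 CPM without and 40.8, 59.7 and 52.3 with Dox in vector cells, and 152.8, 139.4 and 160.8 without and 57.8, 73.0 and 77.7 with Dox in JUN cells. Induction lowered NECTIN1 with a log2 fold change of -0.905 (SE 0.145) and -1.12 (SE 0.145), at edgeR adjusted p values of 0.000265 and 6.84e-05, and the JUN vector raised it by 0.66 (edgeR adjusted p 0.00236) and 0.45 (edgeR adjusted p 0.0263), the latter with 1 vector Dox library above 1 JUN Dox library. That call under induction was lost in 5 of 18 alternative fits, among them those without vector Dox replicate 1 or 3 or JUN Dox replicate 2 or 3 (edgeR adjusted p 0.0547 to 0.0873). CTNND1 (p120-catenin, which keeps cadherins at the surface) was called higher with the JUN vector (0.36, lost in 5 of 18 alternative fits, and 0.49) and lower on induction in vector cells (-0.35, edgeR adjusted p 0.0431, lost in 9 of 18 alternative fits and at -0.213 without vector Dox replicate 1). NECTIN4, at 1.85 to 5.10 CPM, was lower on induction in JUN cells (-0.96, edgeR adjusted p 0.00732).

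The interaction asks whether induction acts differently in JUN and vector cells. It called 5 of the 37 tested genes, 1 above and 4 below 0, beside 0.291% and 0.826% of all genes (1.12% in either direction). CDH1 (Entrez gene 999, GRCh37 chromosome 16, 68771195 to 68869440), which encodes E-cadherin, had 137.1, 120.9 and 130.1 CPM without and 112.5, 143.0 and 132.1 with Dox in vector cells, and 114.2, 122.6 and 123.8 in uninduced JUN cells. In JUN Dox it had 50.8, 69.2 and 56.2 CPM, below every other library. Neither induction in vector cells (-0.002, edgeR adjusted p 0.992) nor the JUN vector without induction (-0.106, edgeR adjusted p 0.502) moved it past the threshold, while induction in JUN cells lowered it with a log2 fold change of -1.03 (SE 0.12, edgeR adjusted p 2.67e-05), a 2.05-fold lower level. The interaction was -1.03 (SE 0.17, edgeR adjusted p 0.00541). CDH3 (P-cadherin), which lies 9.8 kb from CDH1, was lower on induction with a log2 fold change of -0.33 (edgeR adjusted p 0.0126, and 0.0586 without vector Dox replicate 3) and -0.62, with an interaction of -0.285 (edgeR adjusted p 0.522).

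PALS1 (Entrez gene 64398, GRCh37 chromosome 14, 67707430 to 67802778), the adaptor that joins Crumbs to PATJ, had 56.1, 54.6 and 51.0 CPM without and 179.9, 216.4 and 211.8 with Dox in vector cells, and 75.3, 66.7 and 69.4 without and 110.2, 106.1 and 98.0 with Dox in JUN cells. Its rise was 1.91 (SE 0.10, edgeR adjusted p 4.29e-09), or 3.76-fold, in vector cells and 0.57 (SE 0.10, edgeR adjusted p 0.000699), or 1.49-fold, in JUN cells, with an interaction of -1.34 (SE 0.14, edgeR adjusted p 8.54e-05). The JUN vector raised PALS1 by 0.39 without induction (edgeR adjusted p 0.00644) and lowered it with a log2 fold change of -0.95 with induction (edgeR adjusted p 3.45e-06). ATP6V1D on the opposite strand shares 98 exonic bases and had an interaction of -0.026.

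CGN (Entrez gene 57530, GRCh37 chromosome 1, 151482986 to 151511168) encodes cingulin, a tight junction plaque protein. It was low in all libraries but those of vector Dox, with 2.24, 1.80 and 2.92 CPM without and 8.02, 11.8 and 12.7 with Dox in vector cells, and 1.98, 1.60 and 2.25 without and 2.61, 2.77 and 1.92 with Dox in JUN cells. The rise of 2.22 (SE 0.23, edgeR adjusted p 4.06e-06) in vector cells, 4.65-fold, stood against 0.315 (SE 0.25, edgeR adjusted p 0.426) in JUN cells, with an interaction of -1.90 (SE 0.34, edgeR adjusted p 0.0103). NECTIN2 (Entrez gene 5819, GRCh37 chromosome 19, 45349432 to 45392480), an adhesion molecule of the nectin family, had 43.6, 45.9 and 45.4 CPM without and 71.9, 78.2 and 79.8 with Dox in vector cells, and 55.6, 51.0 and 54.1 without and 48.2, 56.2 and 61.3 with Dox in JUN cells. Its induction was 0.77 (edgeR adjusted p 3.65e-05) and 0.045 (edgeR adjusted p 0.801), and the interaction of -0.72 (SE 0.14, edgeR adjusted p 0.0167) was lost in 4 of 17 alternative fits.

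TJP3 (Entrez gene 27134, GRCh37 chromosome 19, 3708360 to 3750811), which encodes the scaffold ZO-3, was the gene with an interaction above 0. Vector EtOH libraries had 10.5, 14.4 and 12.7 CPM, and all others were below them, with 4.36, 3.07 and 2.77 in vector Dox and, in JUN cells, 1.58, 2.19 and 1.74 without and 2.61, 2.29 and 2.38 with Dox. Induction lowered TJP3 in vector cells with a log2 fold change of -1.88 (SE 0.19, edgeR adjusted p 3.41e-06) and the JUN vector with a log2 fold change of -2.76 (SE 0.20, edgeR adjusted p 1.38e-07) without induction, a 6.79-fold lower level. Induction in JUN cells gave 0.39 (edgeR adjusted p 0.238), and the interaction was 2.28 (SE 0.29, edgeR adjusted p 0.000607). APBA3 on the opposite strand shares 42 exonic bases, had a mean of 300.8 counts against 115.1 and had an interaction of 0.215.

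**Figure D5:**
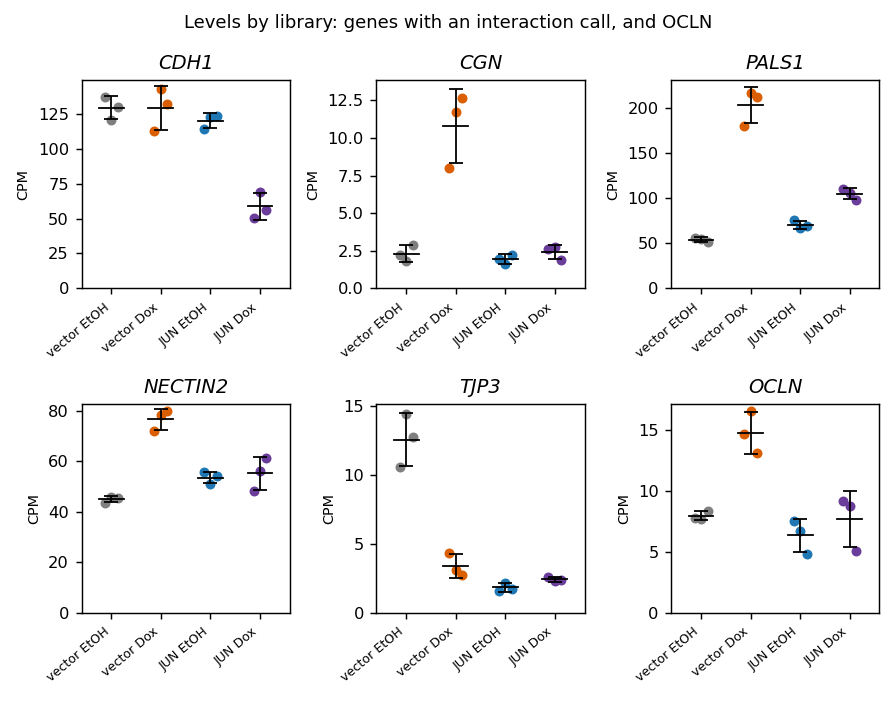
CPM in each library (points) of the 5 genes with an interaction call and of OCLN, which had none, with the group mean and SD (bars, n = 3); every axis starts at 0. CDH1 is low in JUN Dox alone, CGN and PALS1 are highest in vector Dox, and TJP3 is highest in vector EtOH.

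The promoter windows of PALS1, CGN and NECTIN2, whose induction was smaller in JUN cells, are shown with the same limits and build (PALS1 chr14:67241185-67241484, CGN chr1:151511137-151511436, NECTIN2 chr19:44846047-44846346, all on the plus strand). Capitals mark GC boxes and, in NECTIN2, also the CRE palindrome TGACGTCA, which begins 1 base after the start.
PALS1: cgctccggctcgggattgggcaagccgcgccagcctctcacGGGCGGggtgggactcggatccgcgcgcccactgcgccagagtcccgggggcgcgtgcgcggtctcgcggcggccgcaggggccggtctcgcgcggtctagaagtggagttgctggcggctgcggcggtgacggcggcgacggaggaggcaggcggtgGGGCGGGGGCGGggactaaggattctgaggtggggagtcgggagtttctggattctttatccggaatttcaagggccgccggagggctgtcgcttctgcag
CGN: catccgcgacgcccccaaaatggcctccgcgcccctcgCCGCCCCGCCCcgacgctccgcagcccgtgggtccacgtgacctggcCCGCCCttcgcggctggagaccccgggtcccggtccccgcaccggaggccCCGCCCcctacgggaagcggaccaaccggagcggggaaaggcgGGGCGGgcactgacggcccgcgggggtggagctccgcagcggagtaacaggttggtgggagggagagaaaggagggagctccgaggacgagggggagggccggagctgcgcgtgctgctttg
NECTIN2: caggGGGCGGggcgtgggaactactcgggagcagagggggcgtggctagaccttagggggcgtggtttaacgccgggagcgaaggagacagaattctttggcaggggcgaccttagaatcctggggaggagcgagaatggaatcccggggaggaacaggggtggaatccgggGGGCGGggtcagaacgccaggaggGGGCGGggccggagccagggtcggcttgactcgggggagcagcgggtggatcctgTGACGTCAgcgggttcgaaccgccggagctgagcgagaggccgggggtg
The windows hold 3 GC boxes in PALS1, 5 in CGN and 3 in NECTIN2. The GC box was in 21 of the 24 member windows (87.5%) and in 67.9% of 11491 windows of tested genes. The TEAD motif GGAATG was in 0 of the 24 windows and 10.8% of those of tested genes. The AP-1 motif TGANTCA was in 2 (those of CLDN4 and PERP) and 4.94%. The CRE was in 1 and 3.11%, and the Grainyhead motif AACCNGGTT in 0 and 0.209%. All motifs were searched on both strands. The 24 windows include those of CLDN3 and CLDN4, which were not tested. Sites outside the windows, among them distant enhancers, were not searched, so the motif counts do not bear on them.

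Other junction and polarity genes were read from a further list of 44 genes, of which 33 were tested. Induction in vector cells called 3 of them higher and 3 lower, the JUN vector without induction 7 and 7, induction in JUN cells 2 and 4, and the JUN vector with induction 7 and 8. These are 9.09% and 9.09%, 21.2% and 21.2%, 6.06% and 12.1%, and 21.2% and 24.2% of the 33, near or below the shares over all genes given above except for the last. PPL, which encodes periplakin, a plakin of desmosomes and the cornified envelope, showed the largest change in 3 of these comparisons. It had 188.9, 166.2 and 188.2 CPM without and 28.4, 62.7 and 51.8 with Dox in vector cells, and 31.1, 43.2 and 40.03 without and 5.27, 9.25 and 9.84 with Dox in JUN cells. Its falls were 1.93 and 2.22 on induction and 2.25 and 2.54 with the JUN vector (edgeR adjusted p 3.95e-06 to 2.97e-05), with an interaction of -0.29 (edgeR adjusted p 0.934). PARD6A, a PAR complex adaptor, changed most with the JUN vector without induction, from 3.81 to 4.41 CPM down to 0.376 to 1.41 (-2.295, SE 0.34, edgeR adjusted p 0.000132). The interaction called 0 of the 33 genes by edgeR and 0 by DESeq2, and 0 had an unadjusted edgeR p under 0.05.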

How the data were processed

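Poly(A) RNA of 12 libraries was sequenced as single-end reads, and the study's methods call the 3 libraries of a group biological replicates. The authors trimmed and aligned the reads to hg19 (the submitters' processing notes name cutadapt 4.2 and Bowtie2 2.3.5.1) and counted overlaps with genes, and the deposited values are raw counts per Entrez gene. Use of strand and the annotation are not given in the sources used here. The counts were fitted with edgeR 4.0.16 (R 4.3.3, TMM factors, quasi-likelihood test) over all 12 libraries after filterByExpr (minimum count 10), which left 14775 of 23459 genes, and p-values were Benjamini-Hochberg adjusted over all of them with a threshold of 0.05. The interaction is induction in JUN cells minus induction in vector cells. CPM are counts per 1000000 counts after TMM scaling, levels per length use exon lengths of a GRCh37 annotation, and the detection floor is 3 counts per library. The biological coefficient of variation was 12.5%. Alternatives were other scaling factors, no filter, DESeq2 1.42.0, fewer libraries, a replicate block and leaving out each library. Genes named with full values were the 3 largest called changes in each direction and comparison and all interaction calls, and others were described after their values were seen. Members and lists were chosen with earlier results of these data known. Scripts were tested on simulated data. Promoters came from RefSeq (GRCh38.p14), which held windows for 24 of the 39 genes. 1 marker of the immune list is not reported here.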

Additional observations from a re-analysis of the deposited data

Results flagged for a closer look

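Induction of YAP5SA had different effects in JUN and vector cells for 5 junction genes, by the test of the difference itself (edgeR interaction). The interaction was -1.03 on the log2 scale for CDH1, -1.90 for CGN, -1.34 for PALS1, -0.72 for NECTIN2 and 2.28 for TJP3. Over the alternatives the edgeR or DESeq2 adjusted p reached at most 0.0241 for CDH1, 0.0373 for CGN, 0.000895 for PALS1 and 0.0033 for TJP3. For NECTIN2 it reached 0.0616, and its call was lost without vector EtOH replicate 1, vector EtOH replicate 3, vector Dox replicate 3 or JUN EtOH replicate 1, with values of -0.805 to -0.62 throughout.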

How the results depend on the processing

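No value of the 15 genes named by rule or by an interaction call changed direction past the threshold. Of 1335 such values, 1290 stayed on their side of the threshold, 27 lost and 18 gained a call. With the libraries of the comparison alone, 4 rather than 9 genes were called higher with the JUN vector under induction, a fit with fewer samples. Leaving out each library in turn gave 5 to 9 genes higher with the JUN vector without induction and 4 to 9 with induction. Lower calls came to 10 to 13 on induction in vector cells and 10 to 17 in JUN cells. With the JUN vector, lower calls came to 11 to 12 without and 18 to 19 with induction. Deviations of same-numbered libraries correlated at -0.258 to 0.466 (median 0.088, 7 of 18 pairs over 0.1), against -0.47 to 0.315 (median -0.048, 5 of 36 over 0.1) for other numbers, and 7 of 12 libraries correlated best with their own number. Since not every same-numbered pair was over 0.1, the numbers were not taken to pair the samples, though the values hint at some shared variation. With the replicate block, 20, 21, 20, 26 and 5 genes were called for induction in vector cells, the JUN vector without induction, induction in JUN cells, the JUN vector with induction and the interaction. Over all tested members the block took 3 calls, those of TJP1 on induction in vector cells (0.274, edgeR adjusted p 0.052) and of JUP (0.488, 0.0504) and PKP1 with the JUN vector under induction. It added 3, for MARVELD3 on induction in vector cells (0.299, 0.0471), NECTIN2 with the JUN vector without induction (0.254, 0.0488) and DSP with it under induction (0.557, 0.0375). Depth limited CLDN3, CLDN4 and PKP1, which lay at or near the floor of 3 counts.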
